A study of Mus musculus with 21 samples.

Results

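Transcripts of the insulin-like growth factor (IGF) system and of myostatin signalling were followed in mouse quadriceps muscle around an exhausting bout of running. The members were taken from the expression table by their gene symbols. They were the ligand Igf1, its receptor Igf1r, the IGF-binding proteins Igfbp3, Igfbp4, Igfbp5, Igfbp6 and Igfbp7, the ligand Mstn (myostatin), its receptor Acvr2b and the antagonist Fst (follistatin), that is 10 of 53738 symbols. All 10 passed the filter on low values, a mean of at least 1 TPM (transcripts scaled to a common total per library and corrected for length), as did 11819 symbols in all. The 21 libraries were made from bulk tissue of adult male wildtype mice (C57/Bl6) and form 7 groups of 3. Sedentary mice did no exercise. Untrained and trained mice ran on a treadmill until exhaustion and were sacrificed 0 h, 6 h or 72 h later. The paper also describes acclimatisation to the treadmill before such tests and a test of peak oxygen uptake in a subset of mice. Trained mice had used running wheels for 12 weeks before the bout. Trained and untrained mice thus differed in wheel access, and sedentary mice lacked both the wheel and the bout. Treadmill speed was raised in steps during the bout, and the paper reports better performance of trained mice in such tests. The distance run is not given per library, so wheel training and a longer bout cannot be told apart.

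IGF1 is secreted by the liver and by muscle itself and signals through the receptor kinase IGF1R and the IRS docking proteins to PI3 kinase, AKT and mTOR, which promote protein synthesis and muscle growth. The IGF-binding proteins hold IGFs outside the cell and can block or prolong their action, and IGFBP7 binds IGF1 only weakly. Myostatin, a TGF-beta family ligand made mainly by muscle fibres, limits muscle mass through activin type II receptors such as ACVR2B and the transducers SMAD2 and SMAD3, and follistatin binds and neutralises myostatin and activins.

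Untrained and trained 0 h replicate 1 held identical values for all 53738 symbols, so the table holds 20 distinct libraries, and the 0 h results are given with and without this library. The depth of the libraries is unknown, since TPM values keep no read counts. The labels number 3 libraries in each group and do not state that each came from a mouse of its own, so p-values measure the spread between libraries, which may be technical. The kit used does not mark strand. Annotated genes overlap 7 members on the opposite strand (all but Igfbp4, Igfbp5 and Mstn), and reads from the overlaps cannot be told apart. The tissue label was borne out by the 5 fibre markers (Acta1, Ckm, Mb, Myh4, Tnnt3), whose summed level was 49010 to 66520 TPM in every library. Neutrophil markers had low means, 0.34 TPM for S100a8, 0.45 TPM for S100a9 and 0.15 TPM for Retnlg. The first pair was at 0 in no library, Retnlg was at 0 in 2 libraries and Ly6g in 19. In bulk tissue, fewer cells of a type and less RNA per cell cannot be told apart.

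Levels differed widely between the members. Igfbp5 had the highest mean over the libraries at 60.7 TPM, higher than 92.7% of the tested genes. Igfbp7 (29.4 TPM), Igfbp6 (20 TPM), Igfbp4 (13.4 TPM) and Mstn (13.3 TPM) formed the middle range. Igf1 (3.38 TPM), Igfbp3 (3.32 TPM), Acvr2b (2.01 TPM), Fst (1.23 TPM) and Igf1r (1.01 TPM) were low, and Igf1r lay just above the filter. The ratio of the highest to the lowest library ran from 1.39 for Igfbp7 to 3.67 for Igf1. When the groups were ordered by their mean, the ranges of neighbouring groups overlapped in 59 of 60 cases. The exception was Igfbp5, where the trained 72 h mean lay 17.4 TPM above the untrained 6 h mean with no overlap. Neighbours in such an order have the closest means, so the ordering itself favours overlap. Groups further apart could separate, as Fst did between trained 6 h and sedentary muscle. The same count was not made over all tested genes.

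**Figure D1:**
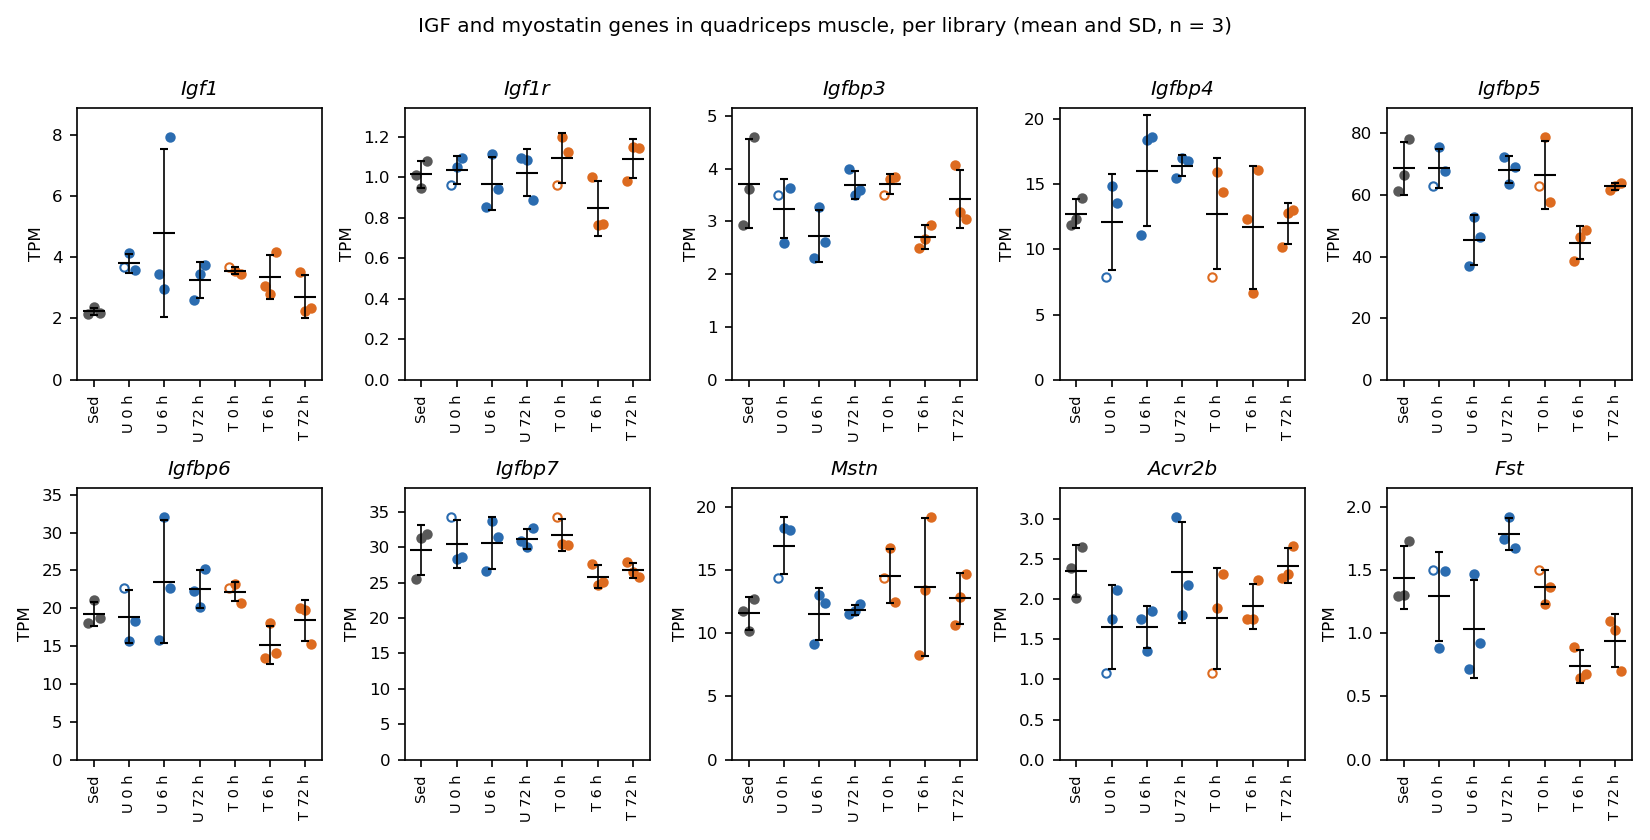
TPM (vertical axes, starting at 0) of the 10 members in each library of the 7 groups (Sed, sedentary; U, untrained; T, trained), with the mean and SD of the 3 libraries in black; open circles mark the library that both 0 h groups hold. Igfbp5 lies between 36.8 and 53.0 TPM in the 6 libraries taken at 6 h and between 57.6 and 78.9 TPM in all others.

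The comparison of each untrained group with sedentary muscle asks what the bout changed. That of each trained group with sedentary muscle holds wheel training and the bout together. There was no trained group without the bout, so their effects cannot be told apart there. The comparison of trained with untrained muscle asks what differed with training at each time, which may include a longer bout. That of successive times asks how recovery ran. All used limma on log2(TPM + 0.5), with 1 model for the 7 groups and Benjamini-Hochberg adjustment over all tested genes. Calls needed an adjusted p under 0.05 together with at least a 1.5-fold change (0.585 as log2), and fold changes on this scale understate those of low genes. Over the 13 comparisons there were 8 calls, which fell on Igf1, Igfbp5 and Fst, and 7 members were called in none. These 3 of 10 members stand beside 13.7% of all tested genes that were called in at least 1 of the 13 comparisons. Among the 7 groups as a whole, the moderated F test passed for Igfbp5 (adjusted p = 0.00305) and Fst (adjusted p = 0.0146), with 34.6% of all tested genes passing. The next lowest was Igfbp3 (adjusted p = 0.0997).

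**Figure D2:**
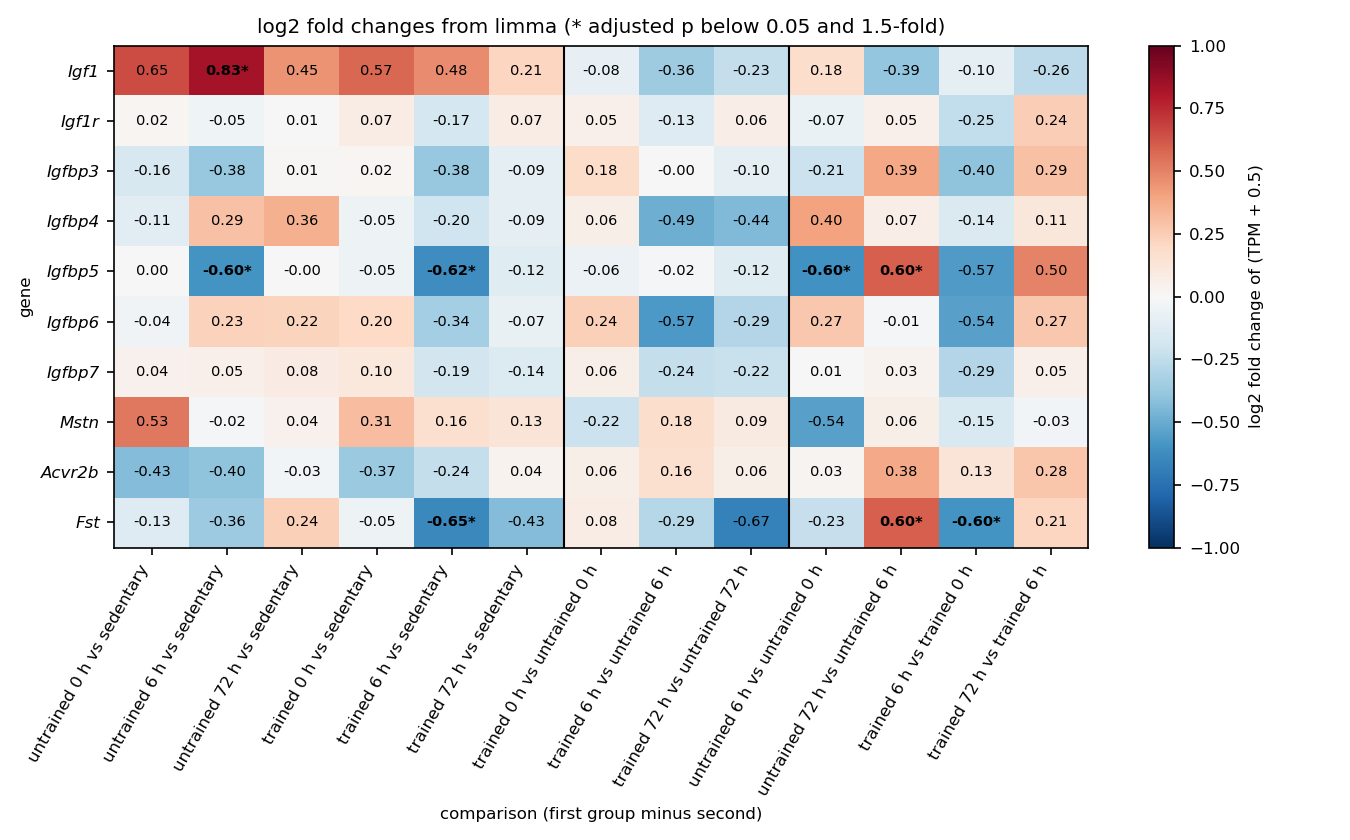
log2 fold changes of TPM + 0.5 of the 10 members (rows) in the 13 comparisons (columns), with vertical lines between the comparisons with sedentary muscle, those of trained with untrained muscle and those between times; asterisks mark calls. The 8 calls stand in the rows of Igf1, Igfbp5 and Fst, and no call stands among the trained against untrained columns.

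Igfbp5 was the member with the most called differences. It encodes a binding protein that muscle makes in quantity during differentiation. The gene lies on chromosome 1, minus strand (GRCm39, 72897091 to 72914043). The sequence upstream of its RefSeq start is shown because this member changed most often. It covers the 231 bases before the first annotated exon (chr1:72914044-72914274, minus strand), matched once from the RefSeq table (GRCm38.p6) to GRCm39, and ends 20 bases before the RefSeq start. Capitals mark a TATA-like match, TATTTAA, at bases 51 to 45 before that start.
Igfbp5 upstream: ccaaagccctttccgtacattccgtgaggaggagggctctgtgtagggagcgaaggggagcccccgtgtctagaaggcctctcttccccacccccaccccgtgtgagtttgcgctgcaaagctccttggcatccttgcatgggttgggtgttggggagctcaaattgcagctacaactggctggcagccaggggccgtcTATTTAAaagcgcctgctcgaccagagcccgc
Upstream windows of 250 bases were matched for 9 of the 10 members, Fst excepted, and searched on both strands. TATTTAA, added after the Igfbp5 window was read, occurs in 4.18% of 32851 such windows. The canonical TATA box TATAAA occurs in 12.4% of them and was found in Igfbp4, in Mstn and, on the other strand, in Igfbp6. The AP-1 motif TGANTCA occurs in 6.75% of windows and was found in Igf1 and Mstn. The E-box of myogenic factors, CAGCTG, occurs in 13% and was found in Igf1. The CRE motif TGACGTCA (1.55% of windows) and the forkhead motif TGTTTAC (3.17%) were found in none, and the windows of Igf1r, Igfbp3, Igfbp7 and Acvr2b had no match at all. These matches are descriptions of letters only.

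Igfbp5 had 61.3, 66.6 and 78.2 TPM in the 3 sedentary libraries. At 0 h, untrained muscle had 63.0, 75.5 and 67.8 TPM and trained muscle 63.0, 78.9 and 57.6 TPM. Both 0 h groups overlapped with the sedentary group. At 6 h, untrained muscle had 36.8, 53.0 and 46.4 TPM and trained muscle 38.5, 46.5 and 48.6 TPM. All 6 of these libraries were lower than every sedentary and every 0 h library. At 72 h, untrained muscle had 72.3, 63.5 and 69.1 TPM and trained muscle 61.6, 63.0 and 63.8 TPM, again within the sedentary range.

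Compared to sedentary muscle, Igfbp5 fell at 6 h from 68.7 ± 8.67 TPM to 45.4 ± 8.14 TPM in untrained muscle (mean ± SD, n = 3). The log2 fold change came to -0.60 with a standard error of 0.14 (limma, adjusted p = 0.0108), where 4.42% of all tested genes were called. In trained muscle it fell to 44.5 ± 5.35 TPM, a log2 fold change of -0.62 with a standard error of 0.14 (limma, adjusted p = 0.00911), beside 3.85% of all tested genes. Trained against untrained muscle at 6 h gave -0.02 on the log2 scale (95% confidence interval -0.31 to 0.27). Within untrained muscle, Igfbp5 fell from 0 h to 6 h by 0.60 on the log2 scale (adjusted p = 0.00972 from limma, 4.64% of all genes called) and rose from 6 h to 72 h by 0.60 (adjusted p = 0.0112 from limma, 4.04% of all genes called). Within trained muscle the same steps passed the adjusted p without reaching 1.5-fold. The log2 fold change was -0.57 from 0 h to 6 h (adjusted p = 0.00833 from limma, 6.46% of all genes called) and 0.50 from 6 h to 72 h (adjusted p = 0.0317 from limma, 3.48% of all genes called). The medians of all tested genes were -0.15 and -0.03 in these trained steps, and -0.09 and 0.02 in the untrained ones. Without the shared library, the trained step from 0 h to 6 h was -0.60 (adjusted p = 0.022 from limma) and was called, and the untrained step was -0.67 (adjusted p = 0.0211).

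The size of the Igfbp5 difference stood near the 1.5-fold limit. With sedentary replicate 3, the highest of its group, left out, the log2 fold change was -0.50 in untrained (adjusted p = 0.0517) and -0.52 in trained muscle (adjusted p = 0.0425) and neither was called. Without untrained 6 h replicate 1 it was -0.46 (adjusted p = 0.0385), and without trained 6 h replicate 1 it was -0.52 (adjusted p = 0.051). A limma model of the pair of groups alone gave an adjusted p of 0.168 for untrained and 0.0739 for trained muscle. The untrained step from 0 h to 6 h was also lost without untrained 0 h replicate 2 (-0.54) or untrained 6 h replicate 1 (-0.46) and after either rescaling of the libraries (-0.51). The rise to 72 h was lost without untrained 6 h replicate 1 (0.46) or untrained 72 h replicate 1 (0.56). Markers of pericytes and smooth muscle (Acta2, Myh11, Pdgfrb, Rgs5) moved with Igfbp5 in part. Their summed level was 65.0 to 79.3 TPM in sedentary muscle, 66.3 to 81.5 TPM in untrained and 69.2 to 84.7 TPM in trained muscle at 0 h, and 55.3 to 59.4 TPM and 56.7 to 70.7 TPM at 6 h. At 72 h it was 75.0 to 76.4 TPM in untrained muscle, but 61.3 to 68.9 TPM in trained muscle, within the range of trained muscle at 6 h. None of these 4 markers was called at 6 h against sedentary muscle. From 0 h to 6 h, Acta2 fell in untrained and trained muscle (log2 fold changes -1.07 and -0.95) while Pdgfrb rose in both (0.80 and 0.68), and Acta2 rose in untrained muscle from 6 h to 72 h (0.84). Their part in the result was not tested.

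The other binding proteins were not called in any comparison. Igfbp3, the main carrier of IGFs in serum, had 3.71 ± 0.839 TPM at rest, and at 6 h 2.72 ± 0.493 TPM without and 2.7 ± 0.222 TPM with training. Both log2 fold changes were -0.38 (adjusted p = 0.132 and 0.118 from limma), and the ranges overlapped. Igfbp4, which mainly restrains IGF action, was as low as 6.66 TPM in trained 6 h replicate 2 and 7.89 TPM in the shared 0 h library, and reached 18.6 TPM in untrained 6 h replicate 3. Libraries of 1 group differed most for this member, with a median SD of 0.41 as log2. At 72 h, Igfbp4 had 15.5, 17.0 and 16.7 TPM in untrained muscle, all above the 3 sedentary libraries (11.8, 12.3 and 14.0 TPM), with a log2 fold change of 0.36 (adjusted p = 0.959 from limma).

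Igfbp6, which prefers IGF2, spread from 15.9 to 32.1 TPM in untrained muscle at 6 h. In trained muscle it had 22.2 ± 1.30 TPM at 0 h and 15.2 ± 2.48 TPM at 6 h. All 3 libraries at 6 h lay below those at 0 h, with a log2 fold change of -0.54 (adjusted p = 0.0557 from limma), and without trained 6 h replicate 2 it was called (-0.67, adjusted p = 0.046). Compared directly at 6 h, trained muscle differed from untrained by -0.57 as log2 (limma, adjusted p = 0.126) with overlapping ranges, and without untrained 6 h replicate 1 it was called (-0.82, adjusted p = 0.0114). The 3 untrained libraries had 15.9, 32.1 and 22.6 TPM of Igfbp6. Their summed tendon markers were 31.5, 114.3 and 58.4 TPM and their fibro-adipogenic markers 148.7, 397.9 and 278.7 TPM. In trained muscle at 6 h these sums were 26.0 to 38.3 TPM and 237.5 to 273.1 TPM. Dcn (mean 211.7 TPM) weighs most in the fibro-adipogenic sum. The part of these cells in the Igfbp6 result was not tested. Igfbp7, which is also made by vessel cells, was the steadiest member. Its lowest group was trained 6 h (25.8 ± 1.63 TPM) and its highest trained 0 h (31.7 ± 2.27 TPM). This step had a log2 fold change of -0.29 (adjusted p = 0.0464 from limma), under the 1.5-fold limit, and -0.23 without the shared library (adjusted p = 0.132). In the step from trained 0 h to 6 h, given here for Igfbp6 and Igfbp7, the median of all tested genes was itself -0.15.

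The 5 binding protein transcripts together made up 133.9 ± 13.9 TPM in sedentary muscle and 99.9 ± 6.32 TPM in trained muscle at 6 h, where each library (94.4, 98.5 and 106.8 TPM) was below the lowest sedentary one (119.6 TPM). In untrained muscle at 6 h the sum was 118.3 ± 24.1 TPM and overlapped with the sedentary group. Within the sum, Igfbp5 held 51.2% ± 1.83 in sedentary muscle, 38.5% ± 1.05 in untrained and 44.5% ± 3.36 in trained muscle at 6 h. All libraries at 6 h had a smaller share than every sedentary library (49.4% to 53.1%), and the untrained ones (37.7% to 39.7%) lay below the trained ones (40.8% to 47.2%). The Igfbp4 share was 13.5% ± 1.69 in untrained muscle at 6 h, against 9.51% ± 0.385 in sedentary muscle. With 3 libraries against 3, a two-sided exact permutation test of a single value cannot go below p = 0.1, so these sums, shares and ratios are given as descriptions.

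**Figure D3:**
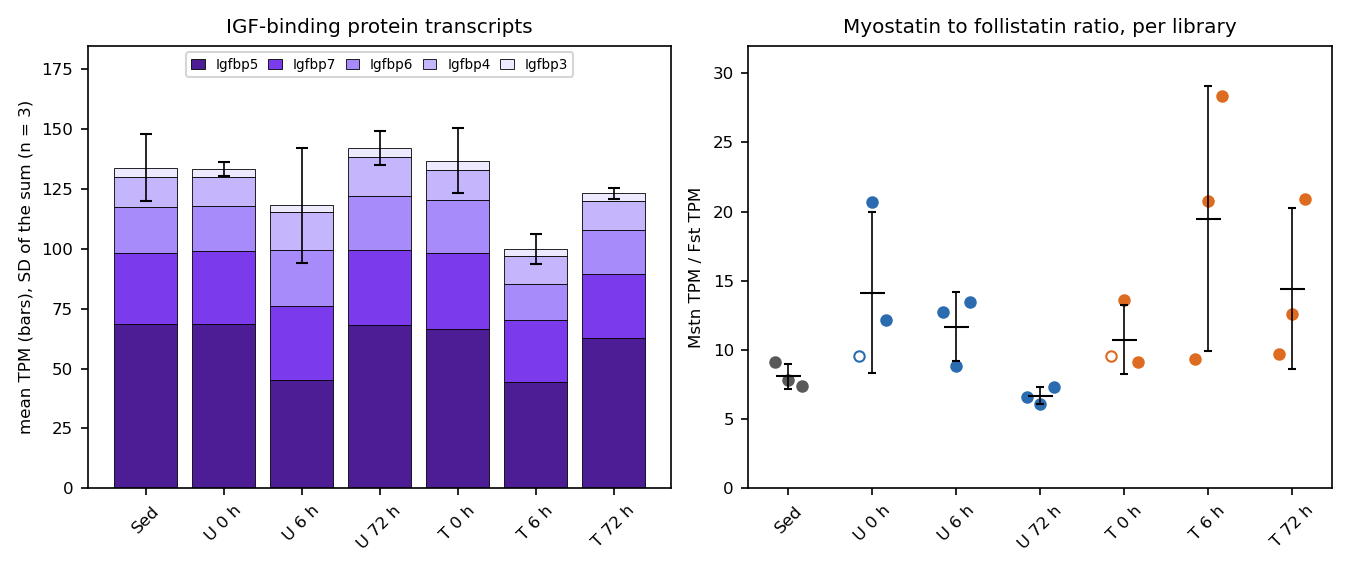
Left, mean TPM of the 5 IGF-binding protein transcripts stacked by group, with the SD of their sum over 3 libraries; right, the ratio of Mstn to Fst TPM in each library with the mean and SD (open circles, the library that both 0 h groups hold). The sum is lowest in trained muscle at 6 h (99.9 TPM), and the Mstn to Fst ratio is lowest in untrained muscle at 72 h (6.68).

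Igf1 (chromosome 10, plus strand, 87693642 to 87772904) had 2.16, 2.37 and 2.17 TPM in sedentary muscle. At 6 h, untrained muscle had 3.45, 2.96 and 7.93 TPM, and the last of these was the highest Igf1 value of all libraries. At 0 h it had 3.69, 4.15 and 3.57 TPM in untrained and 3.69, 3.54 and 3.46 TPM in trained muscle. Every library of these 3 groups was above every sedentary one. Trained muscle at 6 h (3.08, 2.79 and 4.16 TPM) and untrained muscle at 72 h (2.59, 3.44 and 3.73 TPM) also lay above the sedentary range. Trained muscle at 72 h (3.52, 2.25 and 2.36 TPM) overlapped with it.

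Igf1 rose in untrained muscle at 6 h, from 2.23 ± 0.117 to 4.78 ± 2.74 TPM, a log2 fold change of 0.83 with a standard error of 0.25 (limma, adjusted p = 0.0449). This call rested on few libraries. Without untrained 6 h replicate 3, the log2 fold change was 0.44 (adjusted p = 0.16), and without sedentary replicate 1, 2 or 3 the adjusted p from limma was 0.114, 0.0923 and 0.103. It was 0.0677 without the shared 0 h library, 0.0996 without the filter on low values, 0.0563 after rescaling without the mitochondrial genome and the 10 highest genes, and 0.344 in a model of the pair of groups alone.

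In the other groups Igf1 was not called. At 0 h, its log2 fold change was 0.65 in untrained (adjusted p = 0.119 from limma) and 0.57 in trained muscle (adjusted p = 0.151), and 0.67 and 0.55 without the shared library. The median of all tested genes was itself shifted by 0.10 and 0.13 in these comparisons. At 0 h, no member was called in untrained muscle by limma, where 3.59% of all tested genes were, with Igf1 and Mstn at an unadjusted p below 0.05. Of all 11819 tested genes, 2860 were below it. No member was called in trained muscle at 0 h either (3.74% of all tested genes). Igf1 was the only member at an unadjusted p below 0.05, which 3217 of all tested genes reached. In trained muscle at 6 h, the log2 fold change of Igf1 was 0.48 (adjusted p = 0.254), and the direct difference from untrained muscle was -0.36 (95% confidence interval -0.88 to 0.17).

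Macrophages are among the cells known to make IGF1. The summed level of 7 macrophage markers (Adgre1, C1qa, Cd163, Cd68, Csf1r, Lyz2, Mrc1) was 34.0 to 37.3 TPM in sedentary muscle and 29.8, 62.0 and 49.5 TPM in the 3 untrained libraries at 6 h, whose Igf1 levels were 3.45, 2.96 and 7.93 TPM. The sum in the first of these 3 libraries (29.8 TPM) lay below the sedentary range. Of the 6 markers tested, only Cd68 (log2 fold change 1.62) and Csf1r (0.61) were called in untrained muscle at 6 h, both higher, so the list did not move as a whole. In untrained muscle at 72 h the sum was 49.3 to 53.8 TPM, and at 0 h it was 41.9 to 46.7 TPM in untrained and 41.8 to 42.7 TPM in trained muscle. Markers of fibro-adipogenic cells (6 genes, 148.7, 397.9 and 278.7 TPM) and tendon (4 genes, 31.5, 114.3 and 58.4 TPM) also spread widely over the 3 untrained libraries at 6 h. The summed level of 4 adipocyte markers (Adipoq, Cfd, Fabp4, Plin1) was 125 to 151 TPM in sedentary muscle and 166.8, 182.7 and 255.8 TPM in the 3 untrained libraries at 6 h, highest in the library with the highest Igf1. In trained muscle at 6 h, where Igf1 was not called, it was 182.6 to 300.8 TPM. Fabp4 (mean 139.2 TPM, next Cfd with 34.5 TPM) weighs most in the adipocyte sum. Dcn (mean 211.7 TPM, next Col3a1 with 25.1 TPM) weighs most in the fibro-adipogenic sum. The part of these cells in the Igf1 result was not tested. The receptor Igf1r had between 0.766 and 1.20 TPM and overlapped between all pairs of neighbouring groups. Its lowest mean was in trained muscle at 6 h (0.846 ± 0.137 TPM), with a log2 fold change of -0.25 from trained 0 h (adjusted p = 0.106 from limma).

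The ratio of the summed binding protein TPM to Igf1 TPM was 55.3, 57.0 and 68.0 in sedentary muscle, 35.6, 33.0 and 37.0 in untrained muscle at 0 h, 35.6, 43.0 and 36.7 in trained muscle at 0 h and 30.7, 35.3 and 25.7 in trained muscle at 6 h. In untrained muscle at 6 h it came to 26.9, 47.5 and 15.4. The ranges of these 4 exercised groups lay below the sedentary range. At 72 h untrained muscle had ratios of 55.9, 39.0 and 39.5 while trained muscle had 35.2, 55.6 and 51.2, so that both overlapped with the sedentary range.

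Fst, the antagonist of myostatin and activins, was the other member with repeated calls. The gene lies on chromosome 13, minus strand (114588731 to 114595521), where 2 annotated non-coding genes overlap it on the opposite strand. Its TPM were 1.29, 1.30 and 1.73 in sedentary muscle. In trained muscle they were 1.5, 1.23 and 1.37 at 0 h, 0.888, 0.646 and 0.678 at 6 h, and 1.10, 1.02 and 0.703 at 72 h. All trained libraries at 6 h and 72 h were below every sedentary library. In untrained muscle the TPM were 1.5, 0.885 and 1.49 at 0 h, 0.715, 1.47 and 0.924 at 6 h and 1.75, 1.92 and 1.68 at 72 h. Untrained muscle at 6 h overlapped with the sedentary group, and at 72 h it had the highest mean of all groups.

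In trained muscle at 6 h, Fst fell from 1.44 ± 0.25 to 0.737 ± 0.131 TPM, a log2 fold change of -0.65 with a standard error of 0.18 (limma, adjusted p = 0.0306). From trained 0 h to 6 h it fell by 0.60 on the log2 scale (adjusted p = 0.0253 from limma), where the median of all genes was -0.15. In untrained muscle it rose from 6 h to 72 h by 0.60 (adjusted p = 0.0486 from limma). At levels near 1 TPM these calls were sensitive to the libraries and settings used. Against sedentary muscle, the adjusted p from limma was 0.0564, 0.0504 and 0.111 without sedentary replicate 1, 2 or 3, and 0.0904 and 0.0933 without trained 6 h replicate 2 or 3. It was 0.0613 without the filter and 0.0697 in a model of the pair of groups alone, and a pseudocount of 1 gave a log2 fold change of -0.49, under the limit. For the trained step from 0 h to 6 h it was 0.0841 without the shared library (log2 fold change -0.55), and for the untrained step from 6 h to 72 h it was 0.0591. The trained step was also lost without trained 0 h replicate 3 (0.0545) or trained 6 h replicate 2 or 3 (0.0796 and 0.0677). The untrained step was lost without untrained 6 h replicate 1 or 3 (0.158 and 0.135) or any untrained 72 h library (0.0897 to 0.150).

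At 72 h, Fst was lower in all 3 trained than in all 3 untrained libraries (0.942 ± 0.211 against 1.78 ± 0.127 TPM). The log2 difference of -0.67 (95% confidence interval -1.05 to -0.29) had an adjusted p of 0.114 from limma and was not called. Against sedentary muscle at 72 h it was -0.43 (adjusted p = 0.37) in trained and 0.24 (adjusted p = 0.948) in untrained muscle. No member was called by limma against sedentary muscle at 72 h, where 0.169% of all tested genes were called in trained and 0.00846% in untrained muscle. An unadjusted p below 0.05 was reached by Fst in the trained and by 0 members in the untrained group. Of all 11819 tested genes, 1379 and 682 reached it. Markers of fibro-adipogenic cells, which also express Fst, moved in part with it. Col1a1 and Col3a1, 2 of the 6 markers, fell in trained muscle at 6 h against sedentary muscle (log2 fold changes -0.91 and -1.35). Both also fell from trained 0 h to 6 h (-1.46 and -1.31). In untrained muscle Col3a1 rose from 6 h to 72 h (1.40), and Col1a1 was not called. No other marker of the list was called in any comparison. The summed level of the list was 248.3 to 287.8 TPM in sedentary muscle. In trained muscle it was 227.7 to 311.6 TPM at 0 h, 237.5 to 273.1 TPM at 6 h and 279.8 to 310.0 TPM at 72 h. In the 3 untrained libraries at 6 h, with Fst at 0.715, 1.47 and 0.924 TPM, it was 148.7, 397.9 and 278.7 TPM. In untrained muscle at 72 h it was 255.3 to 324.5 TPM. Their part in the result was not tested.

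Mstn (chromosome 1, plus strand, 53100799 to 53107240) had 11.8, 10.2 and 12.8 TPM in sedentary muscle. In untrained muscle at 0 h it had 14.3, 18.3 and 18.2 TPM, all above the sedentary libraries. As log2, this fold change came to 0.53 (limma, adjusted p = 0.157), or 0.64 (adjusted p = 0.206) without the shared library. At 6 h, untrained muscle had 9.13, 13 and 12.4 TPM, all below its 0 h libraries (log2 fold change -0.54, adjusted p = 0.124 from limma). In trained muscle Mstn had 14.3, 16.8 and 12.5 TPM at 0 h and 8.31, 13.4 and 19.2 TPM at 6 h, so that this 1 group held both its lowest and its highest value. At 72 h both groups overlapped with the sedentary one, the means being 11.9 ± 0.387 TPM for untrained and 12.8 ± 2.01 TPM for trained muscle. The receptor Acvr2b had 2.39, 2.01 and 2.65 TPM in sedentary muscle and 1.75, 1.36 and 1.86 TPM in untrained muscle at 6 h. These 3 were all lower, with a log2 fold change of -0.40 (adjusted p = 0.294 from limma). The lowest Acvr2b value, 1.08 TPM, was that of the shared 0 h library.

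The ratio of Mstn to Fst TPM was 9.11, 7.82 and 7.38 in sedentary muscle. In trained muscle it was 9.36, 20.8 and 28.4 at 6 h and 9.72, 12.6 and 20.9 at 72 h, above every sedentary library at both times. In untrained muscle it was 12.8, 8.86 and 13.4 at 6 h and 6.61, 6.10 and 7.34 at 72 h, below every sedentary library at 72 h. At 0 h it was 9.55 in the shared library, 20.7 and 12.2 in the other untrained and 13.6 and 9.10 in the other trained libraries. The spread within trained muscle at 6 h (SD 9.56) was larger than the sedentary mean of 8.11.

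No member was called between trained and untrained muscle by limma. At 0 h this was so for every tested gene (0% called, 143 at an unadjusted p below 0.05), and without the shared library as well. The shared library draws the 0 h means together, and without it 2 libraries stand against 2. The lack of calls at 0 h therefore does not show that training changed nothing. At 6 h, 2.01% of all tested genes were called, with Igfbp6 and Igfbp7 at an unadjusted p below 0.05. At 72 h, 0.245% were called, with Igfbp7 and Fst at an unadjusted p below 0.05. Of all 11819 tested genes, 2166 at 6 h and 1769 at 72 h were below it. The members were mostly lower in trained muscle at these times, 8 of 10 at 6 h and 7 of 10 at 72 h, with median log2 differences of -0.18 and -0.17 against medians of -0.04 and -0.08 over all tested genes. Against sedentary muscle at 6 h, 8 members were lower in trained (median -0.22, all genes -0.01) and 6 in untrained muscle (median -0.03, all genes 0.01). These comparisons share the sedentary libraries.

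Of 63 further genes of both pathways, 45 were tested, and 13 (28.9%) were called in at least 1 comparison, against 13.7% of all tested genes. The lists were chosen with earlier results of these data known, so this is a description. The 18 genes under the filter included Igfbp1, Igfbp2, the activin subunits Inhba and Inhbb and the follistatin-like antagonist Fstl3. Against sedentary muscle, 3 rose and 0 fell in each 0 h group, 2 rose and 1 fell in untrained muscle at 6 h, and 2 rose and 0 fell in trained muscle at 6 h. Of all tested genes, 3.59% (untrained) and 3.74% (trained) were called at 0 h and 4.42% and 3.85% at 6 h. At 72 h limma called 0 in both groups, with 2 genes in untrained and 7 in trained muscle at an unadjusted p below 0.05. Of all 11819 tested genes, 682 and 1379 were below it. Training called 0 of the 45 genes at any time by limma, with 2, 8 and 7 at an unadjusted p below 0.05 at the successive times. Over all tested genes the numbers were 143, 2166 and 1769. The median log2 fold change of the 45 genes was 0.13 and 0.16 in untrained and trained muscle at 0 h, close to the 0.10 and 0.13 over all tested genes. The step from 0 h to 6 h called 1 gene up and 3 down in untrained muscle, and 1 up and 7 down in trained muscle, beside 4.64% and 6.46% of all tested genes.

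At 0 h the largest changes were those of Irs2, a docking protein of the insulin and IGF1 receptors. It had 1.94, 1.93 and 2.22 TPM in sedentary muscle, 14.9, 15 and 13 TPM in untrained and 14.9, 23.3 and 12.6 TPM in trained muscle. The log2 fold changes were 2.55 and 2.74 (adjusted p = 2.86e-07 and 1.27e-07 from limma), and 2.51 and 2.80 without the shared library. By 6 h, Irs2 had fallen to 3.04 ± 0.629 TPM (untrained) and 1.88 ± 0.11 TPM (trained), and its calls held in every alternative and with each library left out. The related Irs1 rose in untrained muscle at 0 h from 3.50 ± 0.202 to 7.02 ± 0.879 TPM (log2 fold change 0.91, adjusted p = 0.0388 from limma). This call was lost without the shared library (adjusted p = 0.147) and without any other library of either group (adjusted p = 0.0612 to 0.130). In trained muscle at 0 h, Irs1 had 6.68 ± 1.81 TPM and was not called. Skil, a co-repressor of SMAD proteins, rose at 0 h from 1.37 ± 0.289 TPM to 2.98 ± 0.596 TPM without and 3.18 ± 0.259 TPM with training (log2 fold changes 0.89 and 0.99, limma, adjusted p = 0.000408 and 0.000154). In a model of the pair of groups alone, the untrained Skil call was lost (adjusted p = 0.0688). Smad3, the transducer of myostatin and activin signals, rose in trained muscle at 0 h from 14.7 ± 2.03 to 23.9 ± 4.21 TPM (log2 fold change 0.68, adjusted p = 0.015 from limma). This call was lost without sedentary replicate 1 (0.57) or trained 0 h replicate 2 (0.54). It was also lost after both rescalings (0.53 and 0.50) and in the limma model of the pair of groups alone (adjusted p = 0.107). In untrained muscle at 0 h, Smad3 had 21.35 ± 3.55 TPM and was not called.

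**Figure D4:**
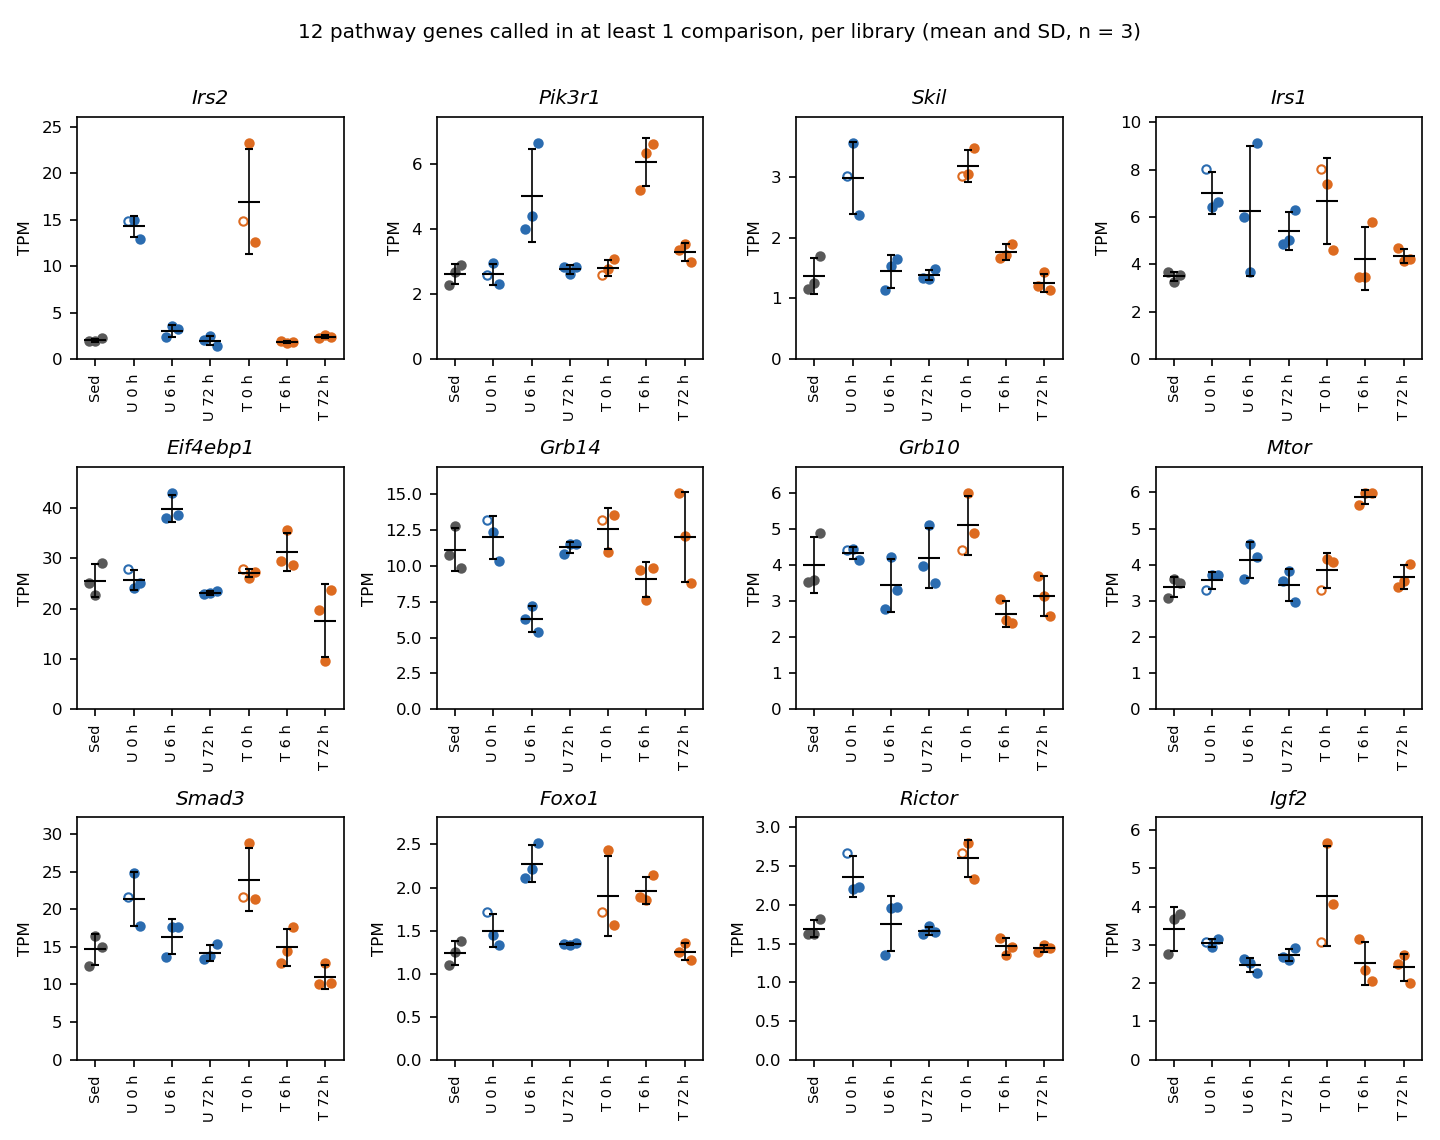
TPM (vertical axes, starting at 0) of 12 pathway genes that were called in at least 1 comparison, in each library of the 7 groups, with mean and SD; open circles mark the library that both 0 h groups hold. Irs2 is between 12.6 and 23.3 TPM in all 0 h libraries and below 4 TPM in all others, and Pik3r1 is highest in the 6 h groups.

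At 6 h a different set changed. Pik3r1, a regulatory subunit of PI3 kinase, rose from 2.62 ± 0.313 TPM to 5.03 ± 1.43 TPM (untrained) and 6.06 ± 0.742 TPM (trained), with log2 fold changes of 0.80 and 1.07 (adjusted p = 0.0016 and 0.000241 from limma). All 6 libraries (4.02 to 6.66 TPM) were above the sedentary ones, and at 72 h the means were 2.76 and 3.30 TPM. Mtor, the kinase that drives translation, had 5.65, 5.98 and 5.99 TPM in trained muscle at 6 h against 3.39 ± 0.275 TPM in sedentary and 4.12 ± 0.494 TPM in untrained muscle. It rose against sedentary muscle in the trained group (log2 fold change 0.71, adjusted p = 0.000455 from limma), and its difference from untrained muscle was 0.47 (adjusted p = 0.0143), under the 1.5-fold limit. Grb14, an adaptor that restrains insulin receptor signalling, fell in untrained muscle at 6 h from 11.1 ± 1.48 to 6.30 ± 0.916 TPM (log2 fold change -0.77, adjusted p = 0.00629 from limma). In trained muscle it had 9.06 ± 1.23 TPM (log2 fold change -0.28, adjusted p = 0.311), and the direct difference was 0.49 (adjusted p = 0.111). The transcription factor gene Foxo1 rose in untrained muscle at 6 h (log2 fold change 0.67, adjusted p = 0.00136 from limma). It was not called in trained muscle at 6 h, but all libraries there (1.853 to 2.149 TPM) were above the sedentary ones (1.099 to 1.375 TPM). With the pair of groups alone in the model, the untrained Pik3r1 and Grb14 calls were lost (adjusted p = 0.143 and 0.0758), and with a pseudocount of 1 that of Foxo1 fell under the limit (0.55).

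Between times, further genes of the lists moved. Eif4ebp1, the translation repressor controlled by mTOR, fell from 6 h to 72 h in untrained (log2 fold change -0.77) and trained muscle (-0.90). The untrained call was lost without any library of either group (adjusted p from limma 0.0505 to 0.0932). The trained one was lost without trained 6 h replicate 2 (-0.80, adjusted p = 0.0556) or trained 72 h replicate 2 (-0.52), or with the pair of groups alone (adjusted p = 0.199). From trained 0 h to 6 h, Grb10, a relative of Grb14, fell by 0.83 and Rictor, a subunit of mTOR complex 2, by 0.66 on the log2 scale. The ligand gene Igf2 fell by 0.64 in the same step (adjusted p = 0.0126 from limma), and by 0.83 without the shared library. The Igf2 call was lost without trained 0 h replicate 2 (-0.44) or trained 6 h replicate 3 (-0.53) after both rescalings (-0.50 each) and with the pair of groups alone (adjusted p = 0.135), and the Rictor change was under the limit after both (-0.52 and -0.57).

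Across the 20 distinct libraries, the patterns most like that of Igfbp5 were those of Dagla (Pearson's r = 0.91), P2rx6 (0.90) and Plpp7 (0.90), as log2(TPM + 0.5). For Fst they were Plat (0.90), Mmp14 (0.88) and Pltp (0.87), and for Igf1 they were Rab8b (0.82), Irs1 (0.80) and Ifi35 (0.79). These values describe the same libraries that gave the group differences and share their scaling.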

How the data were processed

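RNA was measured by paired-end sequencing of bulk quadriceps muscle (TruSeq RNA v2 kit). Per the submitters' processing notes, reads were aligned to GRCm39 with STAR 2.7.9 and quantified with salmon 1.5.0 by the authors, who deposited TPM values per gene symbol. Library sums were 997304 to 997921, and no column was left unassigned. TPM share a total within a library, so a change in abundant genes moves all others.

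From these values, log2(TPM + 0.5) was analysed in limma (version 3.58.1, R 4.3.3) with a variance trend and 14 residual degrees of freedom, and the procedure was tested on simulated data. Figures used matplotlib 3.10.9. All 10 members are named. Pathway genes are named where called at least once, at most 12 by size of change, and for called members the 3 genes with the highest r. Members, lists, named-gene rule and alternatives were chosen with earlier results of these data known. Alternatives were pseudocounts of 0.1 and 1, no filter, median-of-ratios scaling, TPM rescaled without mitochondrial-genome genes and the 10 highest genes, only the groups compared, a replicate block, no shared library, no fold limit and leaving out each library. Gene positions came from GENCODE on GRCm39.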

Additional observations from a re-analysis of the deposited data

Results flagged for a closer look

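The 10 members and the 12 named pathway genes were looked at for each time. In 3 of them, all trained and all untrained libraries of a time lay on opposite sides of the sedentary mean. How many of all tested genes meet this rule was not counted, so the 3 genes have no background to stand against. Trained against untrained muscle was tested with limma and not called in any of these 3 genes. For Fst at 72 h it was -0.672 on the log2 scale (adjusted p = 0.114 from limma), with the trained libraries lower. For Igfbp7 at 72 h it was -0.221 (adjusted p = 0.319), with the trained libraries lower. For Irs2, the docking protein of the pathway lists, at 6 h it was -0.553 (adjusted p = 0.114), with the trained libraries lower.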

How the results depend on the processing

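The number of members called was recomputed under each alternative. Against sedentary muscle at 6 h, the 2 calls in untrained muscle became 1 without a filter, after rescaling and without the shared 0 h library, and 0 with only the groups compared. The 2 calls in trained muscle became 1 with a pseudocount of 1 and without a filter, and 0 with only the groups compared. In untrained muscle from 0 h to 6 h, the 1 call became 0 under both scalings and with only the groups compared. From 6 h to 72 h, the 2 calls became 1 under both pseudocounts, without a filter, after median-of-ratios scaling and without the shared library, and 0 with only the groups compared. In trained muscle from 0 h to 6 h, the 1 call became 0 with a pseudocount of 1, without a filter and under both scalings, and 3 (Igfbp5, Igfbp7 and Fst) without the fold limit. From 6 h to 72 h, 0 calls became 1 without the fold limit. The share of all tested genes called without the fold limit was not counted. Of 11819 tested genes, 4560 and 2606 had an unadjusted p below 0.05 from limma in these 2 trained steps. Under median-of-ratios scaling and the other rescaling, 653 and 742 of them were called in the trained step to 6 h, in place of 764. In the untrained step to 6 h the numbers were 562 and 604, in place of 548. In untrained muscle at 0 h, 0 members called became 1 (Igf1) with only the groups compared, while the calls over all tested genes went from 424 to 315. With 1 library left out, the number ran from 0 to 2 for untrained 6 h, from 0 to 1 for trained 6 h, from 0 to 1 for the direct comparison at 6 h (1 without untrained 6 h replicate 1, Igfbp6), from 0 to 1 for untrained 0 h to 6 h, from 0 to 2 for untrained 6 h to 72 h and from 1 to 2 for trained 0 h to 6 h, and stayed 0 in the others. Over all tested genes, a model of the pair of groups alone lowered the calls at 6 h against sedentary muscle from 522 to 220 (untrained) and from 455 to 264 (trained), in the direct comparison at 6 h from 238 to 27, at trained 0 h from 442 to 262, from untrained 0 h to 6 h from 548 to 276 and from untrained 6 h to 72 h from 477 to 218, and raised those at untrained 72 h from 1 to 10. The 20 calls at trained 72 h became 32 without the shared library and 38 and 46 after the rescalings. No member's called difference changed direction. Why calls were lost was not tested.

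With the replicate number as a block, the untrained step from 6 h to 72 h had 1 call in place of 2 (Fst, adjusted p = 0.0708 from limma), and the block changed no other member's call. Libraries with the same number did not deviate together (median correlation 0.018 over 62 pairs, from -0.115 to 0.134), so the numbers were not taken to pair mice. No counting error can be given for Fst, Igf1r and other members near 1 TPM.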
